A study of Mus musculus with 18 samples.

Results

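EMT6 conditioned medium was added to wild-type (WT) mouse bone marrow cultures growing in GM-CSF, and the RNA of these cultures was compared with that of cultures given GM-CSF alone. The comparison rests on the samples titled for the 2 cultures, 6 of the 18 libraries in the series, 3 per group. Marrow of BALB/c WT mice was cultured for 4 days with GM-CSF at 40 ng/mL, alone (GM-CSF) or together with 50% (v/v) medium taken from EMT6 cells after 24 h (GM-CSF+EMT6-CM, here called EMT6 medium). The other groups, also of 3, were WT marrow given GM-CSF and 40 ng/mL IL-6, and the same 3 cultures of marrow labelled Cysltr1-/-. All 18 libraries received GM-CSF, and none received medium conditioned by cells other than EMT6. What EMT6 cells secrete therefore cannot be told apart from other effects of 50% conditioned medium. Every sample pooled the marrow of 3 mice. The labels do not say whether the samples of a group came from separate pools, so p-values measure only the spread between these samples, which may be technical.

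GM-CSF drives marrow progenitors to become granulocytes, macrophages and cells with dendritic cell features, through a receptor made of Csf2ra and Csf2rb that activates STAT5. EMT6 is a mouse mammary carcinoma line of BALB/c origin, and conditioned medium carries what such cells secrete. Myeloid cells read inflammatory signals mainly through NF-kB, which switches on chemokines, cytokines and its own inhibitors, and through interferon receptors, which switch on antiviral genes by way of STAT factors and interferon regulatory factors.

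Depth, as counts in annotated genes, ran from 19.2 M to 32.0 M over the GM-CSF libraries and from 13.7 M to 18.2 M over those in EMT6 medium. The share of reads outside every annotated feature was 14.2% ± 1.53 (SD, n = 3) in the former and 36.2% ± 1.39 in the latter. Receptor genes of the nose, 1738 olfactory and vomeronasal ones with no known role in myeloid cells as a group, held 0.0184% and 0.0911% of gene counts. Levels near that background cannot be told apart from it, so what follows rests on 12040 expressed genes, those with a mean of at least 5 CPM (counts scaled to a common library total) in 1 of the 2 groups. Levels are given as scaled CPM, CPM after a scaling factor computed on these expressed genes. A gene is said to have risen or fallen when edgeR's quasi-likelihood test gave a Benjamini-Hochberg adjusted p under 0.05 and the change was at least 2-fold, a log2 fold change of 1. Changes are log2 fold changes of EMT6 medium over GM-CSF, with their standard error (SE).

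EMT6 medium changed the cultures broadly. Of the 12040 expressed genes 1948 rose (16.2%) and 1330 fell (11.0%), and the median log2 fold change over all of them was 0.01. The 3 libraries of each group did not overlap for any gene that rose and for 1328 of those that fell, against 41.3% (higher) and 40.5% (lower) of all expressed genes with no overlap. Without the 2-fold limit 5100 genes were higher (42.4%) and 4962 lower (41.2%). This balance depends on the scaling: rises made up 59.4% of calls here, 29.0% when scaling factors came from all 28334 genes tested, and 23.1% with DESeq2 size factors. Those settings moved the median change by -0.54 and -0.68. They include 16294 genes under 5 CPM in both groups, of which 11964 were at least 2-fold higher in EMT6 medium libraries by the scaling used here. Among the rises, 162 had a mean in EMT6 medium under 2 times the level that reads outside features would give.

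The promoters of some of the genes that rose are shown here because they carry the letters that interferon-responsive factors or NF-kB are known to bind. They are the 200 bases before the RefSeq start (build GRCm38.p6), 5′ to 3′ along the gene, with matches in capitals. The interferon element searched was GAAA, any 2 bases and GAAA, or on the other strand TTTC, any 2 bases and TTTC. The genes shown were chosen after their values were seen.
Ifit3, chr19:34583329-34583528, plus strand: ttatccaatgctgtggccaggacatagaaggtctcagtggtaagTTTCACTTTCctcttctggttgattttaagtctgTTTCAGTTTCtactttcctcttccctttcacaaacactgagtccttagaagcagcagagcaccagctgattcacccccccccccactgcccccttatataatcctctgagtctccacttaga
Rsad2, chr12:26456453-26456652, minus strand: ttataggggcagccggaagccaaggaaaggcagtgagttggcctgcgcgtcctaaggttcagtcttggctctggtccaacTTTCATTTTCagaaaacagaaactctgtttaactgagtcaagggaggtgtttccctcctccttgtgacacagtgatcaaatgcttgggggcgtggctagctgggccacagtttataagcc
Isg15, chr4:156200819-156201018, minus strand: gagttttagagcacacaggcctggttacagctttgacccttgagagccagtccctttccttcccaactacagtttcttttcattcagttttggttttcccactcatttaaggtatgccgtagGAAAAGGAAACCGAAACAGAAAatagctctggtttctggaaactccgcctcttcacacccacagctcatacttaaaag
Ifit3 has 2 matches, Rsad2 has 1, and Isg15 has 3 that overlap into 1 run of capitals. The kappaB element searched was GGG, any 2 bases and TTTCC, or on the other strand GGAAA, any 2 bases and CCC.
Cxcl1, chr5:90891045-90891244, plus strand: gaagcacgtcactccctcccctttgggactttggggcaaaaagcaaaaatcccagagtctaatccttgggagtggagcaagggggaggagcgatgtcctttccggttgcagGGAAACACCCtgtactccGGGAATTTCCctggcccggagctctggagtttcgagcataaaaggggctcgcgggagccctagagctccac
Cxcl2, chr5:90903699-90903898, plus strand: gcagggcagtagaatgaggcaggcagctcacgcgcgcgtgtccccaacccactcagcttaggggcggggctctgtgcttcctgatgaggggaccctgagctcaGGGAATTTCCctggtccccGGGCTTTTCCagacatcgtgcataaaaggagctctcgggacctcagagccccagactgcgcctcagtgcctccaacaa
Nfkbia, chr12:55492648-55492847, minus strand: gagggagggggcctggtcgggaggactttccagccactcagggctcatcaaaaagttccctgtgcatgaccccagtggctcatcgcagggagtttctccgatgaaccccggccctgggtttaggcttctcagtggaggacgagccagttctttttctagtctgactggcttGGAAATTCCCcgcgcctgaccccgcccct
Cxcl1 and Cxcl2, which lie near each other on chromosome 5, have 2 matches each, and Nfkbia has 1. The rise of Nfkbia was far smaller than theirs and missed the 2-fold limit when scaling used all genes tested.

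These 2 elements were counted in 27025 RefSeq promoters, each read from 250 bases before the start to 50 after it. The interferon element was present in 3.49% of all promoters, in 3.20% of those of expressed genes, in 4.47% of those of genes that rose and in 2.97% of those of genes that fell. Among the 15 antiviral effectors that rose and had a promoter in the table, 8 held it, and none held the kappaB element. That list was made of interferon response genes, with earlier results of these data known, so its share is no test. The kappaB element was present in 1.62% of all promoters, 2.54% of rises and 1.09% of falls. Of 7 chemokines that rose and had a promoter, 3 held the kappaB element and 1 the interferon element. Of 8 NF-kB subunits and feedback inhibitors that rose and had a promoter, 2 held the kappaB element and none the interferon element. A match is a description of these letters and does not show that a factor was bound. Ifit2, Irf7, Ccl3 and Ptgs2 rose with neither element in this window.

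The 12 largest rises were the secreted proteins Csf3, Cxcl1, Cxcl2, Saa3 and Il12a, the enzymes Ptgs2, Ptges and Vnn3, the interferon-inducible genes Rsad2, Rtp4 and Ifit2, and the orphan receptor Gprc5b. Csf3 encodes G-CSF, the growth factor of neutrophils, and was at 0.122, 0.103 and 0.0940 scaled CPM in the GM-CSF libraries and at 129, 128 and 120 in EMT6 medium. Its log2 fold change was 10.14 ± 0.14 (edgeR adjusted p = 2.60e-40), from 8 counts in all in the GM-CSF libraries. Cxcl1, a ligand of the neutrophil receptor Cxcr2, went from 2.56, 1.5 and 2.57 to 1299, 1242 and 1202 (9.09 ± 0.09). Both genes were low in every GM-CSF library and high in every EMT6 medium library. Ptgs2 (cyclooxygenase 2) was at 2.81, 2.12 and 2.41 and then at 221, 224 and 230 (6.51 ± 0.08). Ptges, the microsomal prostaglandin E synthase that acts on its product, was at 4.64, 5.02 and 4.86 and then at 261, 275 and 260 (5.78 ± 0.07). The pair makes prostaglandin E2 in successive steps. Genes were ranked here only where the 2 groups did not overlap. Saa3, an acute phase protein, averaged 4.27 and then 440 scaled CPM (6.65 ± 0.08), and Vnn3, a vanin of the pantetheinase family, averaged 1.88 and then 202 (6.76 ± 0.08). Il12a, the p35 subunit shared by IL-12 and IL-35, averaged 4.66 and 185 (5.30 ± 0.09), Gprc5b averaged 2.72 and 111 (5.36 ± 0.08), and Rtp4, a receptor transporter protein, 0.845 and 86.8 (6.70 ± 0.11).

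**Figure D1:**
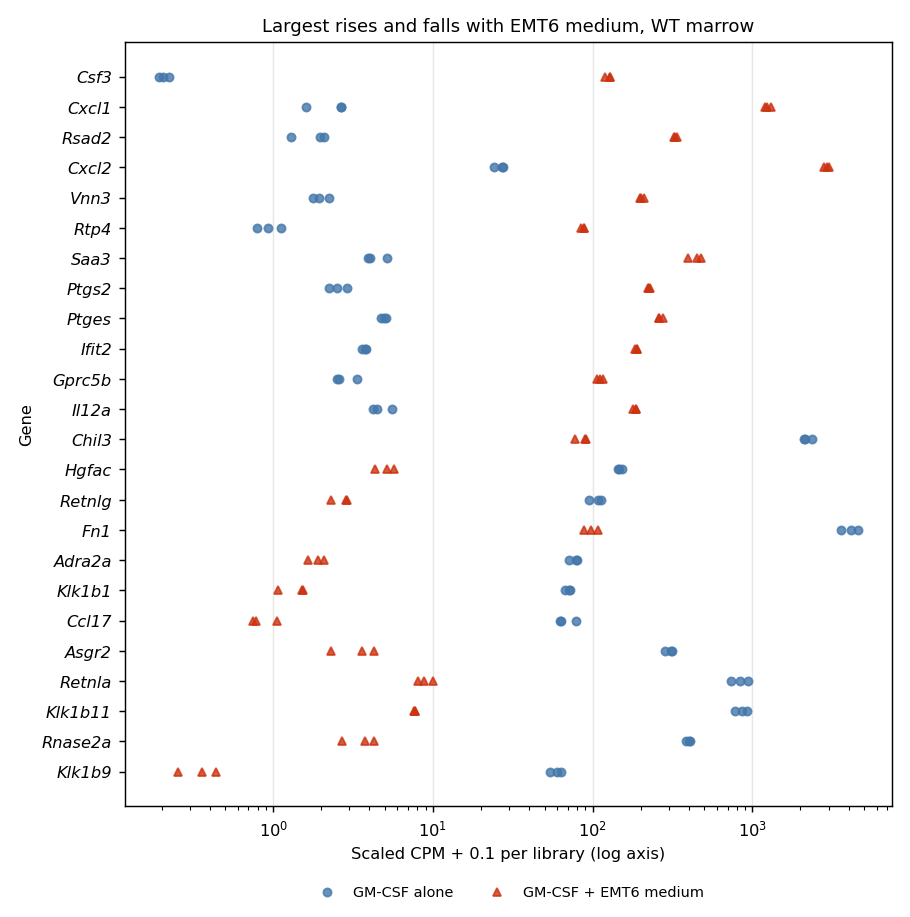
Scaled CPM plus 0.1 (log axis) of the 12 largest rises and 12 largest falls among genes with a mean of at least 50 CPM in the higher group; each point is 1 library, circles for GM-CSF alone and triangles for EMT6 medium. Only genes whose 2 cultures did not overlap were ranked, and Csf3 and Klk1b9 sit at the 2 extremes.

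The largest falls included secreted proteins, kallikreins and a surface lectin. Retnla, a marker of alternatively activated macrophages, was at 832, 731 and 943 scaled CPM in GM-CSF libraries and at 8.72, 9.90 and 8.01 with EMT6 medium (-6.56 ± 0.09). Chil3, a chitinase-like protein of the same programme, was at 2124, 2099 and 2345 and then at 91.3, 88.8 and 77.8 (-4.67 ± 0.09). Fn1, the matrix protein fibronectin, was at 4149, 4552 and 3603 and then at 97.6, 108 and 88.1 (-5.39 ± 0.13). The falls, like the rises, were ranked only among genes with no overlap between the groups. The kallikreins Klk1b9, Klk1b11 and Klk1b1 fell (-7.80, -6.82 and -5.77), and so did Rnase2a, an eosinophil-associated ribonuclease (-6.82). Members of these 2 families are near-identical, so reads that fit several copies may be missing from the counts. Asgr2, a subunit of the asialoglycoprotein receptor, averaged 302 and then 3.30 (-6.53 ± 0.09), and Adra2a, an adrenergic receptor, 76.1 and then 1.78 (-5.42 ± 0.09).

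In CPM, the largest gain was that of Fth1, the ferritin heavy chain, which stores iron. It was at 7394, 7152 and 8225 scaled CPM in GM-CSF libraries and at 53635, 58290 and 51556 in EMT6 medium (2.84 ± 0.05). Fth1 alone took 5.07% to 5.61% of all gene counts in EMT6 medium libraries and 0.721% to 0.821% in GM-CSF libraries. Ftl1, the light chain, was at 1073, 1013 and 1184 and then at 4726, 4887 and 4328 (2.09 ± 0.05). Both chains rose, and both have many processed pseudogenes, so reads that also fit a pseudogene may be missing from the counts. Other large gains were those of the protease Ctsl (mean 1057 and then 9663; 3.19 ± 0.05), of Lcn2, which binds bacterial siderophores (639 and then 4332; 2.76 ± 0.06), and of B2m, the light chain of MHC class I (714 and then 2907; 2.03 ± 0.06). The largest losses were those of Cd74, the invariant chain of MHC class II (5164 and then 852; -2.60 ± 0.04), of Fn1 and of Actb, cytoplasmic actin (5017 and then 1306; -1.94 ± 0.04). Actb fell under each scaling tried, so it does not serve as a constant reference in these cultures.

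**Figure D2:**
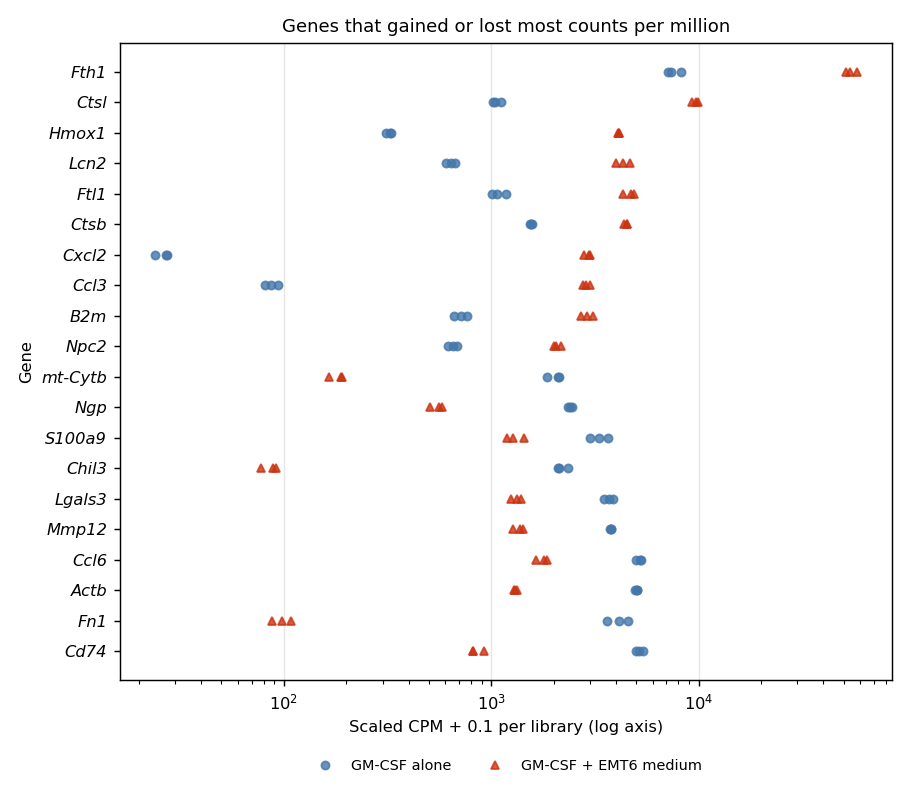
Scaled CPM plus 0.1 (log axis) of the 10 genes that gained and the 10 that lost most CPM among those called, 1 point per library, circles for GM-CSF alone and triangles for EMT6 medium. Fth1 lies at 51556 scaled CPM or above in each EMT6 medium library and at 8225 or below in each GM-CSF library.

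A total of 39 pathway lists with 692 distinct genes was read next, of which 641 were expressed, 154 rose and 115 fell. These counts are set against the 16.2% and 11.0% of all expressed genes, and lists were not tested as sets. The largest adjusted p among listed members that rose or fell was 1.31e-07 (edgeR), and no such member had overlapping groups. Medians and counts depend on the scaling. With factors from all genes tested (all-gene scaling below) medians move down by about the shift given above, and rises under about 1.54 miss the 2-fold limit. That setting removed 51 of the 177 rises and none of the 140 falls among the distinct genes of these lists and the marker lists, and its counts are given where they differ. In the plot of the lists, chemokines of the CXC family, antiviral effectors and the IL-1 family stand at the top, and integrins and complement at the bottom.

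**Figure D3:**
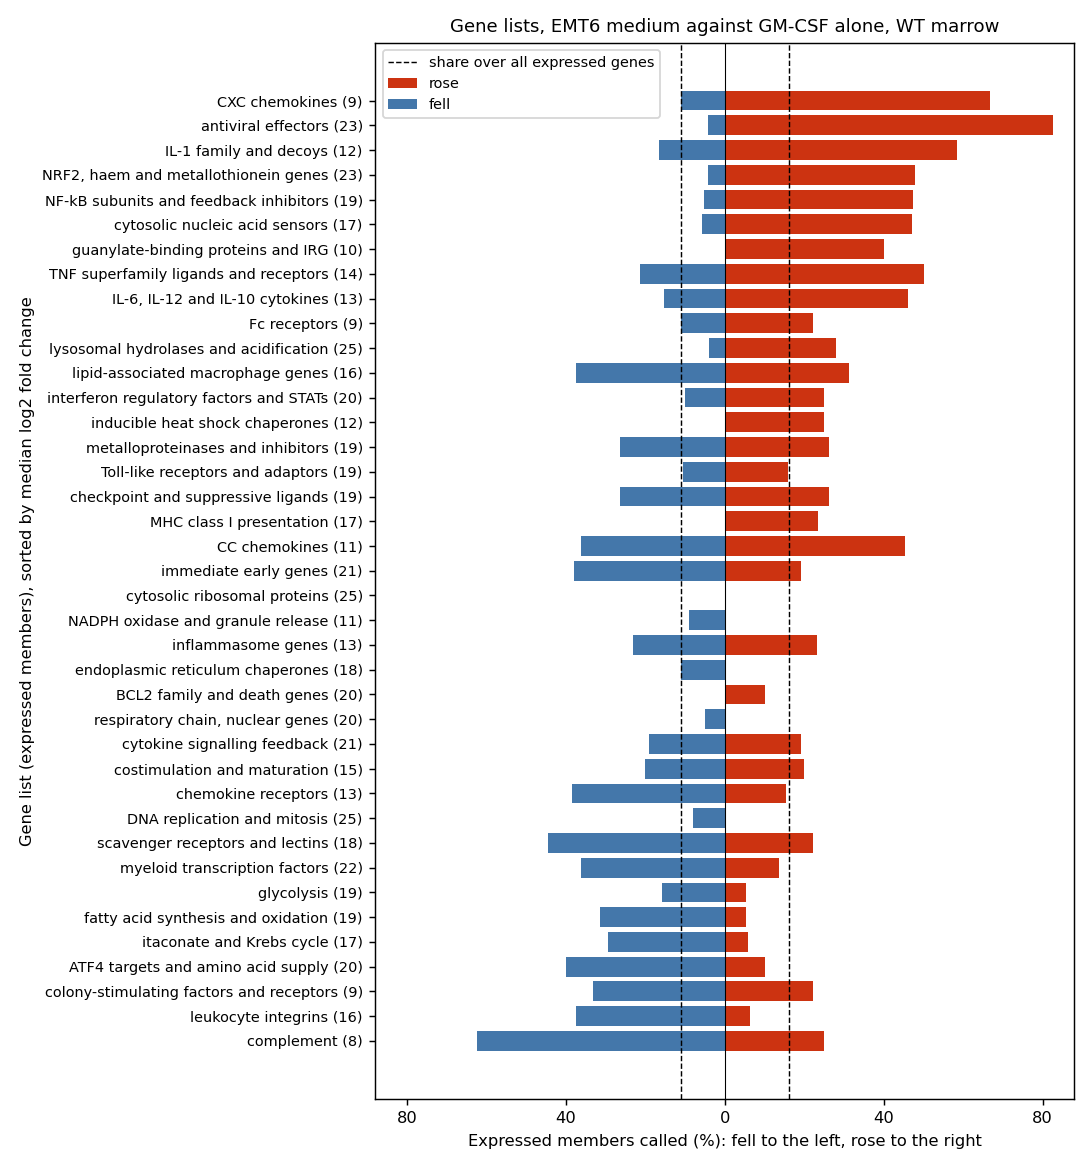
Share of the expressed members of each list that rose (bars to the right) or fell (bars to the left), sorted by the median log2 fold change, with the number of expressed members in brackets; dashed lines mark 16.2% and 11.0%, the shares over all expressed genes. Antiviral effectors have 19 of 23 members that rose and cytosolic ribosomal proteins have none of 25 in either direction.

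Among chemokines, which steer leukocytes, Cxcl1, Cxcl2, Cxcl3 and Cxcl5, which draw neutrophils, and Ccl2 and Ccl7, which draw monocytes, rose, while Ccl17, Ccl22 and Ccl24, known from type 2 responses, fell. Of 9 expressed CXC chemokines 6 rose and 1 fell (median 3.78), and of 11 CC chemokines 5 rose and 4 fell (median -0.01). Cxcl2 was at 26.9, 23.8 and 27.3 scaled CPM and then at 2949, 2999 and 2811 (6.80 ± 0.06), and Ccl3 at 94.3, 81.0 and 86.7 and then at 2868, 2989 and 2760 (5.04 ± 0.06). Cxcl3 averaged 89.1 and then 1231, and Cxcl5 1.37 and then 53.7. These, with Cxcl1, share the receptor Cxcr2 apart from Ccl3, which binds Ccr1 among others. The monocyte attractants Ccl2 and Ccl7 averaged 13.7 and 2.35 and then 211 and 72.7 (3.94 and 4.92). In the other direction Ccl17 was at 63.6, 62.2 and 78.5 and then at 0.963, 0.685 and 0.646 (-6.45 ± 0.14), and Ccl22 averaged 146 and then 11.6 (-3.66 ± 0.06). Ccl17 and Ccl22 share the receptor Ccr4, found on regulatory and type 2 T cells. Ccl24, an eotaxin, averaged 38.9 and then 5.06, and Ccl6 averaged 5160 and then 1771.

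Receptors fell more often than they rose. Of 13 expressed chemokine and chemoattractant receptors 2 rose and 5 fell (median -0.38), or 1 and 6 with all-gene scaling. Ccr2, the receptor of Ccl2 and Ccl7, was at 329, 341 and 344 and then at 31.3, 30.3 and 33.1 scaled CPM (-3.42 ± 0.05). Cxcr2 was at 197, 202 and 191 and then at 37.9, 35.9 and 33.9 (-2.45 ± 0.07). The groups were far apart for both. Ccr1 averaged 437 and then 205 (-1.09), and C5ar1, a receptor of the complement fragment C5a, 161 and then 34.5 (-2.22). Ccrl2, an atypical receptor that binds chemerin, was the main rise, from 36.1, 33.3 and 36.3 to 456, 454 and 445 (3.68 ± 0.05). Whether a lower receptor transcript reflects fewer cells of a type or less RNA per cell cannot be told apart in bulk RNA, here and below.

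In the IL-1 family 7 of 12 expressed members rose and 2 fell (median 1.60), or 6 and 3 with all-gene scaling. Il1a was at 8.21, 9.36 and 9.31 and then at 222, 223 and 213 scaled CPM (4.61 ± 0.06), and Il1b averaged 24.1 and then 119 (2.29 ± 0.06). Il1rn, the antagonist of the IL-1 receptor, averaged 350 and then 1644 (2.23), while Il1r2, the decoy receptor, averaged 588 and then 157 (-1.90 ± 0.05). Ligands and the soluble antagonist were thus higher and the decoy lower. Il1f6 (IL-36 alpha) had 2 counts in all GM-CSF libraries and 539 in all EMT6 medium libraries, a ratio of 429 per gene count (95% exact binomial interval 118 to 3548, for counting error only).

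Of 13 expressed genes of the IL-6, IL-12 and IL-10 families and their receptors, 6 rose and 2 fell (median 0.70), or 4 and 3 with all-gene scaling. Il6 was at 4.11, 3.47 and 4.20 and then at 13.3, 13.5 and 11.8 scaled CPM (1.69 ± 0.10), and Il10 averaged 0.551 and then 7.47 (3.67 ± 0.23). Il12a was the largest rise of this list, whereas its IL-12 partner Il12b stayed under 5 CPM in both groups, at 0.838 and 2.62. The receptor chains Il6ra and Il6st, the signal transducer gp130, averaged 75.8 and 174 and then 35.9 and 76.5 (-1.07 and -1.18). Tnf was at 55.6, 48.5 and 45.0 and then at 292, 292 and 286 (2.55 ± 0.06). In the TNF superfamily 7 of 14 members rose and 3 fell, or 5 and 5 when scaling used all genes tested. The death receptor Fas averaged 24.5 and then 163 (2.73), Tnfrsf1b, the second TNF receptor, 241 and then 830 (1.79), and Tnfsf8, the CD30 ligand, 25.5 and then 3.52 (-2.87).

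Of 9 expressed genes for colony-stimulating factors and their receptors Csf3 and Flt3 rose, while Csf1, Csf1r and Csf2ra fell, and 5 fell with all-gene scaling. Csf1, the macrophage growth factor, averaged 221 and then 90.2 (-1.29 ± 0.04), and its receptor Csf1r 779 and then 272 (-1.52 ± 0.04). Csf2ra, the ligand-binding chain for GM-CSF, was at 362, 354 and 330 and then at 106, 104 and 98.3 (-1.76 ± 0.04). Its signalling partner Csf2rb was at 2517, 2642 and 2367 and then at 1476, 1410 and 1464, a change of -0.79 ± 0.04 that passed the adjusted p (edgeR, 3.17e-20) but not the 2-fold limit. Cish and Socs2, STAT5-induced inhibitors of cytokine receptors, averaged 384 and 146 and then 147 and 27.3 (-1.39 and -2.42). Socs3, which restrains receptors that use gp130 and the receptor of G-CSF, averaged 293 and then 722 (1.30 ± 0.04, under the 2-fold limit when scaling used all genes tested).

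Of 19 genes for NF-kB subunits and feedback inhibitors 9 rose and 1 fell (median 0.93), with 6 and 1 when scaling used all genes tested. None of the 5 subunits passed the 2-fold limit; the rises were inhibitors and other targets, while the inhibitors Nfkbie, Bcl3 and Cyld changed by 0.55, 0.93 and -0.19 and Tnip3 fell (-1.09). Nfkbiz, an atypical inhibitor needed for some secondary response genes, was at 21.15, 20.02 and 18.80 and then at 192, 174 and 188 scaled CPM (3.21 ± 0.06). Tnfaip3 (A20), which edits ubiquitin chains to stop NF-kB signalling, was at 73.9, 74.6 and 72.6 and then at 403, 393 and 403 (2.44 ± 0.04). Its partner Tnip1 averaged 98.5 and then 391 (1.99). Nfkbia (IkB alpha) averaged 284 and then 590 (1.05, under the 2-fold limit when scaling used all genes tested). Among subunits Relb changed by 0.90, Rel by 0.64, Rela by 0.24 and Nfkb1 by -0.13. Of 19 Toll-like receptor and adaptor genes 3 rose and 2 fell, but 2 rose and 7 fell with all-gene scaling. Irak3, an inhibitory kinase of that pathway, was at 52.6, 51.8 and 49.1 and then at 365, 332 and 349 (2.77 ± 0.05), while Tlr8, a sensor of single-stranded RNA, averaged 23.9 and then 2.82 (-3.05 ± 0.11).

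Other feedback and immediate early genes changed in both directions. Of 21 genes of cytokine signalling feedback 4 rose and 4 fell (median -0.35), but 2 rose and 9 fell with all-gene scaling. Dusp4 and Dusp1, phosphatases of MAP kinases, averaged 10.5 and 36.5 and then 355 and 160 (5.08 and 2.14), while Dusp6, an ERK phosphatase, averaged 171 and then 74.6 (-1.20). Of 21 immediate early genes 4 rose and 8 fell (median -0.08), or 2 and 8 with all-gene scaling. The stress factor Atf3 averaged 106 and then 465 (2.14 ± 0.05), and the nuclear receptor Nr4a1 10.7 and then 90.3 (3.08 ± 0.07). Myc was at 161, 158 and 149 and then at 42.4, 47.0 and 42.4 (-1.83 ± 0.06), Egr2 averaged 147 and then 36.8 (-1.99), and Fos and Jun changed by 0.27 and 0.02. The list did not move in 1 direction.

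Antiviral effectors of the interferon response rose in 19 of 23 expressed members and fell in 1 (median 3.43), with the same counts when scaling used all genes tested. Rsad2 (viperin) was at 1.87, 1.19 and 1.97 and then at 323, 326 and 335 scaled CPM (7.56 ± 0.08). Ifit1, which binds foreign RNA ends, was at 0.854, 0.621 and 1.03 and then at 33.3, 39.3 and 33.3 (5.33 ± 0.14), Ifit2 averaged 3.63 and then 188 (5.69 ± 0.09) and Isg15, a ubiquitin-like modifier, 2.69 and then 71.6 (4.67). Each was low in all 3 GM-CSF libraries. Ifit3 shares sequence with Ifit3b, so its 25.5 scaled CPM in EMT6 medium may lack reads that fit both. Ifitm1, a membrane protein that hinders viral entry, was the exception and averaged 1544 and then 473 (-1.71 ± 0.05). Of 17 cytosolic nucleic acid sensors 8 rose and 1 fell, or 5 and 1 with all-gene scaling. Oasl1 averaged 1.93 and then 41.3, and Cgas, which senses DNA, 14.1 and then 45.5 (1.70), whereas Tmem173 (STING), which acts downstream of Cgas, was at 72.6, 70.5 and 71.5 and then at 16.1, 16.2 and 16.3 (-2.14 ± 0.06).

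The regulators of this response changed unevenly, with 5 of 20 rising and 2 falling (median 0.37), or 2 and 3 when scaling used all genes tested. Irf7, which amplifies type I interferon, was at 23.8, 23.0 and 21.4 and then at 365, 362 and 351 (3.99 ± 0.06). Both chains of the type I interferon receptor rose, Ifnar1 from a mean of 98.3 to 281 (1.52) and Ifnar2 from 66.1 to 252 (1.93). Irf9 averaged 45.2 and then 112 (1.31), while Stat2 changed by 0.08. Irf5, an activator of inflammatory cytokines in macrophages, was at 335, 323 and 313 and then at 38.8, 40.0 and 39.2 (-3.04 ± 0.05), and Irf4 averaged 239 and then 74.4 (-1.68 ± 0.05). Ifnb1, the gene of interferon beta, had 0 counts in the GM-CSF libraries and 16, 10 and 13 in EMT6 medium. This is at least 20.7-fold higher against a floor of 3 counts over the GM-CSF group, but at 0.819 CPM it lies under the 5 CPM limit, where reads outside features would give 0.269 CPM. Of 10 expressed interferon-inducible GTPases (GBP and IRG genes) 4 rose and none fell (median 0.83), and 2 rose and 2 fell when scaling used all genes tested.

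Genes of antigen presentation changed in both directions. Of 17 MHC class I genes 4 rose and none fell (median 0.03), though 2 rose and 4 fell when scaling used all genes tested. H2-K1 was at 230, 227 and 239 and then at 619, 630 and 589 (1.40 ± 0.04, under the 2-fold limit when scaling used all genes tested), and Nlrc5, the class I transactivator, averaged 7.09 and then 27.5 (1.96 ± 0.09). Class I genes of mouse are near-identical in part, so H2-K1 and H2-D1 (960 and then 2331) may lack reads that fit both. The class II genes H2-Aa and H2-Ab1 averaged 1197 and 1127 and then 274 and 229 (-2.13 and -2.30), and their transactivator Ciita 181 and then 24.5 (-2.88). Of 15 costimulation and maturation genes 3 rose and 3 fell, but 2 rose and 6 fell with all-gene scaling. Slamf7, an adhesion receptor of the SLAM family, averaged 7.65 and then 174 (4.49 ± 0.06), Cd40 5.48 and then 16.4 (1.57), and Cd86 changed by -0.94.

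Genes that restrain T cells changed in both directions, 5 of 19 up and 5 down, or 4 up and 8 down when scaling used all genes tested. Cd274 (PD-L1) was at 233, 236 and 225 and then at 1508, 1468 and 1593 scaled CPM (2.72 ± 0.04), while Pdcd1lg2 (PD-L2) averaged 48.1 and then 13.8 (-1.79 ± 0.06). The 2 ligands of PD-1 thus moved in opposite directions. Nos2, which makes nitric oxide from arginine, was at 142, 153 and 127 and then at 573, 532 and 568 (1.99 ± 0.05). Arg1, which cleaves arginine, was at 2061, 2047 and 2127 and then at 263, 265 and 231 (-3.04 ± 0.07), and its mitochondrial relative Arg2 averaged 59.3 and then 215 (1.86).

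Pattern receptors of the surface also split. Of 18 scavenger receptors and lectins 4 rose and 8 fell (median -0.40), or 3 and 9 with all-gene scaling. Clec4e (Mincle), a receptor for glycolipids, was at 74.7, 74.4 and 78.0 and then at 909, 898 and 852 (3.55 ± 0.05), and its neighbour Clec4d averaged 92.9 and then 655 (2.81 ± 0.06). Mgl2, a galactose lectin, averaged 1621 and then 69.0 (-4.55 ± 0.07), Cd209a 29.6 and then 0.552 (-5.76) and Mrc1, the mannose receptor, 95.7 and then 18.7 (-2.35). Of 16 integrins and adhesion genes 1 rose and 6 fell (median -0.88), and none rose and 13 fell when scaling used all genes tested. Itgax (CD11c) was at 556, 604 and 547 and then at 48.2, 47.3 and 44.2 (-3.61 ± 0.07), and Itgam (CD11b) averaged 673 and then 208 (-1.70). Among 8 complement genes C1qa, C1qb, C1qc, Cfp and C5ar1 fell, Cd55 and C3ar1 rose (1.22 and 1.03) and C3 changed by 0.32. With all-gene scaling the same number fell, 5, and none rose.

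Matrix proteases held strong changes of both signs, with 5 of 19 up and 5 down, or 4 and 7 with all-gene scaling. Mmp13, a collagenase, was at 69.5, 78.1 and 75.5 and then at 876, 859 and 817 (3.52 ± 0.05), whereas Mmp19 averaged 267 and then 37.0 (-2.85 ± 0.06) and Mmp12, the macrophage elastase, 3769 and then 1363 (-1.47 ± 0.05). Of 11 genes of the phagocyte NADPH oxidase and granule release none rose (median -0.09), and Cybb, the catalytic subunit, changed by 0.53.

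Iron, haem and antioxidant genes rose in 11 of 23 expressed members and fell in 1 (median 0.99), and 8 rose and 2 fell when scaling used all genes tested. Hmox1, which opens the haem ring and frees its iron, was at 325, 313 and 329 and then at 4082, 4131 and 4143 scaled CPM (3.68 ± 0.04). The iron carriers Slc11a2 and Slc11a1 averaged 14.4 and 43.4 and then 119 and 288 (3.04 and 2.73), and Slc40a1, the exporter ferroportin, 50.3 and then 122 (1.27). With the ferritin chains, the genes named here cover the release of iron from haem, its storage and its transport. Sod2, the mitochondrial superoxide dismutase, averaged 97.0 and then 600 (2.63), and Gpx1, a glutathione peroxidase, 755 and then 303 (-1.32 ± 0.05). The NRF2 targets Nqo1, Txnrd1 and Srxn1 changed by 0.85, 0.99 and 0.00.

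Of 25 lysosomal genes 7 rose and 1 fell (median 0.60), and 2 rose and 3 fell when scaling used all genes tested. Ctsb was at 1544, 1566 and 1564 and then at 4534, 4540 and 4387 (1.53 ± 0.04), and Npc2, which hands cholesterol out of the lysosome, averaged 653 and then 2080 (1.67 ± 0.04). Ctsc, the protease that activates granule serine proteases of neutrophils, was the exception, at 798, 800 and 804 and then at 164, 165 and 160 (-2.30 ± 0.04). Genes of lipid-laden macrophages split, 5 of 16 up and 6 down, or 3 and 6 with all-gene scaling. The fatty acid carriers Fabp4 and Fabp5 averaged 3.55 and 46.5 and then 115 and 301 (4.97 and 2.70), while Lpl, lipoprotein lipase, was at 631, 666 and 665 and then at 46.7, 43.2 and 42.4 (-3.89 ± 0.05), and Pparg averaged 37.7 and then 7.77 (-2.29).

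Central metabolism held few rises. Acod1, which makes itaconate from a Krebs cycle intermediate, was the 1 member of 17 that rose in that list, from 17.9, 19.0 and 17.6 to 237, 227 and 223 scaled CPM (3.66 ± 0.05). In the same list 5 fell, or 10 with all-gene scaling, among them Acly, which turns citrate into acetyl-CoA (1018 and then 213; -2.25 ± 0.04), and Idh1 (406 and then 99.0; -2.04). Of 19 fatty acid genes 1 rose and 6 fell, or none and 11 with all-gene scaling, with Fasn, fatty acid synthase, at 304 and then 51.0 (-2.57 ± 0.06). Among 19 glycolysis genes Pfkfb3, whose product stimulates glycolysis, rose from a mean of 152 to 729 (2.26 ± 0.05), and Pfkp, Pdk1 and Eno1 fell, while 10 fell with all-gene scaling. Hk2 and Slc2a1, the glucose transporter, changed by 0.06 and 0.00. Of 20 ATF4 targets and amino acid genes 2 rose and 8 fell, or 1 and 11 with all-gene scaling. Examples are Ddit3 (CHOP) from 25.4 to 149 (2.54 ± 0.06) and the arginine transporter Slc7a2 from 525 to 120 (-2.13 ± 0.06).

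Messenger RNAs encoded by the mitochondrial genome were lower. Of 13 tested 11 were expressed, and 10 of these fell, while mt-Co1 was lower by less than 2-fold. The tally mixes very unlike levels. In GM-CSF libraries mt-Co2, mt-Atp6, mt-Co3 and mt-Atp8 averaged only 36.8, 24.2, 22.0 and 7.49 scaled CPM, and mt-Co1 6772. Reads that fit more than 1 place in the genome may be missing from the counts of these genes, which was not tested. The mitochondrial mRNAs were examined after mt-Cytb was seen among the largest losses. mt-Cytb, a subunit of complex III, was at 2127, 2091 and 1859 and then at 190, 190 and 164 (-3.48 ± 0.10), and mt-Nd1, of complex I, averaged 1351 and then 296 (-2.19 ± 0.07). mt-Co1, of complex IV, was at 6858, 7083 and 6374 and then at 6132, 5740 and 5123, a change of -0.26 ± 0.06, with no overlap. Of 20 nuclear genes of the respiratory chain none rose and 1 fell (median -0.26), but 6 fell with all-gene scaling (median -0.80).

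Other lists held few calls. By edgeR no gene of 25 cytosolic ribosomal proteins rose or fell, with changes between -0.41 and 0.44. At an unadjusted p under 0.05, 4 were higher and 10 lower, and DESeq2 called none higher and 2 lower at the same limits. Of 18 endoplasmic reticulum chaperones and regulators none rose, and Sdf2l1 and Xbp1 fell, or 5 fell with all-gene scaling. Among 25 genes of replication and mitosis none rose and Cdk1 and Top2a fell (-1.07 ± 0.06 and -1.14 ± 0.05), but 10 fell when scaling used all genes tested. Of 12 heat shock chaperones Hspa1a, Hspa1b and Hspb1 rose, and the first pair is near-identical. With all-gene scaling 3 rose and 2 fell. Of 20 BCL2 family and death genes Bcl2l1 and Cflar, which oppose cell death, rose (1.40 each), and neither passed the 2-fold limit when scaling used all genes tested, where 6 of that list fell. In the lists without a rise, genes higher at an unadjusted edgeR p under 0.05 numbered 5 for the oxidase, 3 for the endoplasmic reticulum, 4 for the nuclear respiratory chain, 1 for replication and 1 for the neutrophil markers described next, and DESeq2 called none of them higher. In the lists without a fall, genes lower at that p numbered 2 of the GBP and IRG genes, 7 of MHC class I, 3 of the heat shock chaperones and 11 of the BCL2 family and death genes, and DESeq2 called 2, 5, 3 and 8 lower.

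Transcription factors of the myeloid lineage fell in 8 of 22 members and rose in 3 (median -0.49), or fell in 11 and rose in 2 with all-gene scaling. Spi1 (PU.1), the factor that defines the lineage, was at 500, 470 and 484 and then at 505, 507 and 482 scaled CPM (0.04 ± 0.04, edgeR adjusted p = 0.376), though it was -0.50 when scaling used all genes tested. Irf8 averaged 166 and then 275 (0.73 ± 0.04), short of the 2-fold limit. Maf averaged 19.6 and then 72.1 (1.87). Cebpe, which drives granule genes of late neutrophil precursors, averaged 101 and then 25.8 (-1.97), and Cebpb, used in emergency granulopoiesis, 823 and then 1704 (1.05 ± 0.04). The Cebpb call was lost without any 1 EMT6 medium library or without the second GM-CSF library.

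Markers of the cell types such cultures can hold were summed per library. Neutrophil markers summed to 11461 ± 699 scaled CPM (SD, n = 3) in GM-CSF libraries and to 3516 ± 249 in EMT6 medium, and 10 of 14 fell and none rose (12 fell with all-gene scaling). The granule genes Ltf, Camp and Mpo averaged 915, 140 and 539 and then 42.8, 6.16 and 35.0 (-4.42, -4.51 and -3.95), while Ly6g changed by -0.79 and Csf3r by -0.21. Monocyte markers summed to a mean of 5513 and then 1129, in which Fn1 alone contributed 4101 and 97.8. Of 10 monocyte markers 2 rose and 5 fell, or 1 and 5 with all-gene scaling. Dendritic cell markers summed to 8376 and then 1525, in which Cd74 alone contributed 5164 and 852. With H2-Aa and H2-Ab1 it made up most of both sums, so they mainly reflect MHC class II genes. In that list 6 of 9 expressed members fell (7 with all-gene scaling), while Flt3 averaged 5.06 and then 18.6 (1.86). Of 12 macrophage markers 7 fell and 2 rose. The rises were Cd68, a lysosomal glycoprotein, from 427 to 1219 (1.51), and Fcgr1 from 22.9 to 47.3 (1.05). With all-gene scaling 8 fell and none rose. Macrophage markers summed to 3018 and then 2239, in which Lpl alone contributed 654 and 44.1, so Lpl made up most of that difference. So the labelled myeloid tissue carried its defining markers in both groups, at lower sums with EMT6 medium for these 4 types. The monocyte, dendritic cell and macrophage sums lean on single genes, as given above. The part of cell composition in the gene changes above was not tested.

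**Figure D4:**
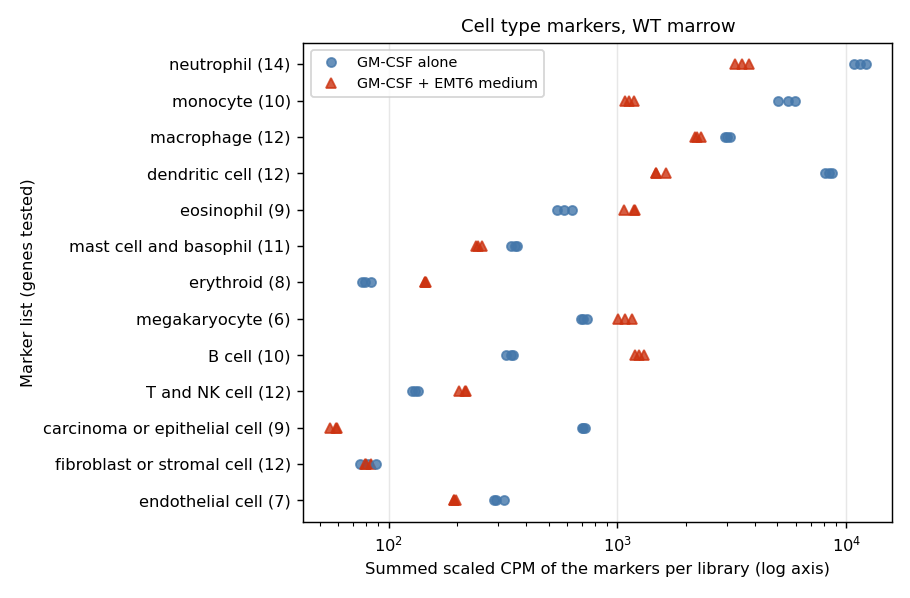
Summed scaled CPM of the tested markers of 13 cell types (log axis), 1 point per library, circles for GM-CSF alone and triangles for EMT6 medium. Neutrophil, monocyte and dendritic cell sums are lower in each EMT6 medium library, and the B cell sum is higher.

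Markers of other cells moved too. All 9 expressed B cell markers rose, or 8 with all-gene scaling and 5 with DESeq2 size factors, and their sum went from 340 ± 12.1 to 1248 ± 53.1, a ratio of 3.67. Ighm averaged 157 and then 560, Cd79a 21.2 and then 91.5, and Pax5 22.9 and then 69.9. Of 6 expressed eosinophil markers the granule genes Prg2, Epx and Prg3 rose (284, 215 and 11.3 and then 657, 438 and 23.6), while Siglecf and Ear2 fell. None of the 3 rises passed the 2-fold limit with all-gene scaling or DESeq2 size factors, and 1 did with library sizes alone. Of 8 fibroblast and stromal markers 6 rose from very low levels, such as Col1a1 at 2.38 and then 11.3 and Dcn at 0.370 and then 11.3, where reads outside features would give 2.09 for Dcn. Their sum was 81.7 and then 80.8, since Lepr fell from 52.7 to 4.01. Of the 9 carcinoma and epithelial markers tested, only Epcam and Cdh1 were expressed, Epcam at 9.36 and then 10.2 and Cdh1 at 697 and then 34.4. The keratins Krt7, Krt8, Krt14, Krt18 and Krt19 stayed under 5 CPM in both groups. Krt18 was the highest of them in EMT6 medium, at 0.756 and then 3.33, where reads outside features would give 0.515. A small number of carcinoma cells, or their RNA, was not tested.

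For reference, the levels with IL-6 in the same WT cultures are given for the 3 largest rises and the 3 largest falls. That comparison shares the GM-CSF libraries, so the levels are set side by side. Csf3 averaged 0.106 scaled CPM with GM-CSF, 0.164 with IL-6 and 126 with EMT6 medium. Cxcl1 averaged 2.21, 3.60 and 1247, and Rsad2 1.68, 1.80 and 328. Klk1b9 averaged 59.0, 10.2 and 0.250, Rnase2a 397, 92.6 and 3.48, and Klk1b11 853, 204 and 7.56, so the IL-6 level lay between the others for these falls. Of all expressed genes 1952 (16.2%) were at least 2-fold higher with EMT6 medium than with IL-6 and 1347 (11.2%) lower. Each of the 12 largest rises and 12 largest falls was among them. Those genes were chosen on the same EMT6 medium libraries, so this tally was largely fixed by the choice.

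In marrow labelled Cysltr1-/-, from separate samples, EMT6 medium raised 2299 expressed genes (19.1%) and lowered 1769 (14.7%). The rises included 1742 of the WT rises (89.4% of the WT list, 75.8% of the other), and the falls included 1083 of the WT falls (81.4% and 61.2%). The Cysltr1 transcript was not lower under the Cysltr1-/- label, with 1259, 915 and 1718 counts in WT and 1697, 1904 and 1271 counts in labelled Cysltr1-/- GM-CSF libraries, so whole-gene counts do not check the allele. The effect of EMT6 medium differed between genotypes by at least 2-fold, in the edgeR test of the interaction, for 431 genes (3.58%) that were relatively higher in labelled Cysltr1-/- marrow and 254 (2.11%) that were lower. Reads in no feature made up 50.2% of the labelled Cysltr1-/- EMT6 medium libraries, and their part in these differences was not tested.

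**Figure D5:**
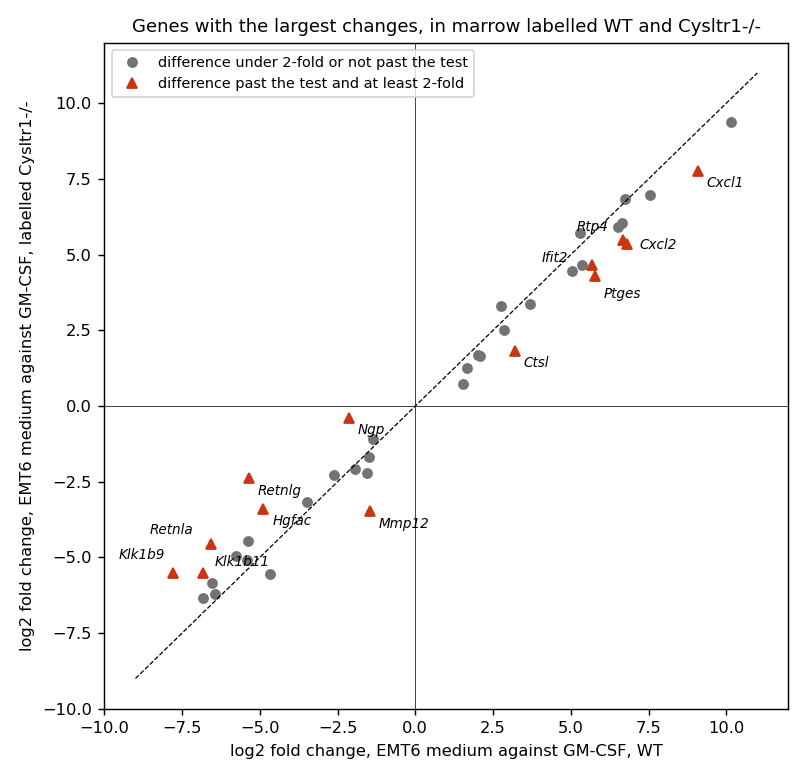
Log2 fold change of EMT6 medium over GM-CSF in WT marrow (x axis) and in marrow labelled Cysltr1-/- (y axis) for the genes with the largest changes and the largest gains or losses of counts; the dashed line marks equal change, and triangles mark genes whose difference passed the interaction test and was at least 2-fold. All points share their sign between the axes, and Retnlg lies farthest from the line, at -5.35 and -2.39.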

How the data were processed

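Bulk poly(A) RNA was sequenced from 18 cultures. The values used are raw counts per annotated feature, 1 table per sample, as deposited by the authors. The submitters' processing notes name HISAT2 2.1.0, HTSeq 0.13.5, DESeq2 1.34.0 and build mm10, without roles. A deposited table of normalized values was not used here. The annotation and the strand setting are not given in the sources used here, and nothing in the labels calls the library kit directional, so overlapping and antisense genes and near-identical copies are uncertain. All 55536 gene IDs of the tables matched GENCODE M21, which gave positions and, for 55450, a symbol. Another 26248 numbered entries (0.0473% of feature counts in WT GM-CSF, 0.208% in EMT6 medium libraries), 97 spike-in entries at 0 and HTSeq's summary lines stayed out of library sizes and tests.

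Samples were grouped by their titles. Each gene was tested with edgeR 4.0.16 in R 4.3.3 (quasi-likelihood F test, filterByExpr) on all 18 libraries, fitting 1 mean for each of the 6 groups. P-values were adjusted over the 28334 genes tested. TMM scaling factors were computed on the 12040 genes with a mean of at least 5 CPM in WT GM-CSF or WT EMT6 medium libraries. Lower levels cannot be told apart from background, as said above. With this scaling 11964 of the 16294 genes under that limit were at least 2-fold higher in EMT6 medium libraries. That count depends on the scaling and does not justify it. The common biological coefficient of variation was 0.0442. SE values were derived from the F statistic. Replicate libraries differed by more than counting noise, with chi-square values of 2.06 to 7.52 for each degree of freedom, and all were kept. In simulated counts with changes planted in this comparison (27035 genes tested), the call recovered 27 of 50 genes with a 2-fold change and all 50 with a 4-fold and all 50 with an 8-fold change, and it made 5 false calls. None of 50 genes changed 1.5-fold passed the 2-fold limit, although 50 of 50 passed the adjusted p. The simulated EMT6 medium libraries kept the GM-CSF means apart from the planted changes. They held no raised background and no broad change, so errors from background or from the choice of scaling are not covered. Depth limits mainly genes of a few counts, since the deepest library held 32.0 M and the shallowest of the 6 held 13.7 M gene counts.

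The comparison, the 39 pathway lists, the 13 marker lists and the rules were chosen with earlier results of these data known. Named genes are the 12 largest rises and falls with at least 50 CPM in the higher group, no overlap between groups and no predicted-gene name; the 10 largest gains and losses of CPM among called genes; up to 3 members of each list per direction among those called; 12 genes chosen by name, such as Csf3, Cd274 and Spi1; and members of short marker lists. Other members are named for their role in a list, and these and the mitochondrial mRNAs were picked after their values were seen. The background estimate is exon length times the library's reads in no feature per kb outside exons (mean 2.27 in WT GM-CSF and 5.48 in EMT6 medium libraries). Promoters came from a RefSeq table (GRCm38.p6), the first listed per gene. Alternatives were other scalings, filters and fold limits, DESeq2 1.42.0, background subtraction, fewer libraries, a replicate block and each library left out. A few genes are not reported here.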

Additional observations from a re-analysis of the deposited data

Results flagged for a closer look

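The effect of EMT6 medium differed between marrow labelled Cysltr1-/- and WT marrow for 16 of the genes with the largest changes, the largest gains or losses of counts or chosen by name, by the edgeR interaction test at an adjusted p under 0.05 and a difference of at least 2-fold. Apart from those chosen by name, the genes were picked for large changes in the WT libraries that also enter the difference. Such a choice favours smaller changes in the other genotype, and its part here was not tested. Values are the log2 effect in labelled Cysltr1-/- marrow minus that in WT, so a positive value on a gene that fell means a smaller fall. The starting level also differed for several of these genes, so scaled CPM means are given as GM-CSF and then EMT6 medium. Il6 differed in sign, with an effect of 1.69 in WT and -1.05 in labelled Cysltr1-/- marrow (-2.74). It averaged 3.92 and then 12.8 in WT and 25.3 and then 12.3 in labelled Cysltr1-/-, so the EMT6 medium levels were close and the GM-CSF levels were not. Retnlg (2.96) averaged 106 and then 2.596 in WT and 18.5 and then 3.56 in labelled Cysltr1-/-, and the granule gene Ngp (1.73) 2401 and then 549, and 738 and then 559. Falls were also smaller for Klk1b9 (2.28), Klk1b11 (1.31), Hgfac (1.49) and Retnla (2.00), each from a lower GM-CSF level, and larger for Mmp12 (-2.01) and Arg1 (-1.03), each from a higher one. Rises were smaller for Cxcl1 (-1.33), Cxcl2 (-1.44), Ptges (-1.49), Ifit1 (-1.78), Ifit2 (-1.04), Rtp4 (-1.22) and Ctsl (-1.36). Of these Ptges averaged 265 in WT and 75.9 in labelled Cysltr1-/- EMT6 medium libraries, and Rtp4 86.8 and 79.1. Reads in no feature rose from 17.6% to 50.2% in labelled Cysltr1-/- and from 14.2% to 36.2% in WT libraries, and their part in these differences was not tested.

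Signal outside the genes used also separated the 2 WT cultures. Reads in no annotated feature reached 36.2% in EMT6 medium libraries against 14.2% with GM-CSF alone. Olfactory and vomeronasal receptor genes took 0.0911% of gene counts against 0.0184%, and the numbered entries took 0.208% of feature counts against 0.0473%.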

How the results depend on the processing

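The counts of 1948 rises and 1330 falls moved with the scaling and with the limits on level and fold. TMM over all genes tested gave 1290 and 3159, DESeq2 size factors in edgeR gave 1177 and 3923, and DESeq2 itself gave 1178 and 3927. A mean CPM of at least 20 left 766 rises and 963 falls, from fewer genes, and no limit on the fold change gave 5100 and 4962. With each library left out in turn, rises ran from 1837 to 1968 and falls from 1317 to 1496. Library sizes alone, other low-count filters, glmTreat, only the 6 libraries and background subtraction kept each count within 1.5 times the reported one. The replicate block over the 9 WT libraries gave 1924 rises and 1354 falls, and the same libraries without the block, an alternative chosen after seeing the data, gave 1925 and 1354. The numbers do not pair the samples: deviations of same-numbered libraries correlated at 0.01, -0.33 and -0.16, and EMT6 medium replicate 2 correlated best with GM-CSF replicate 3 (0.34). Of 193 genes that rose or fell and were named by size, by list or by choice (marker lists not included), 18 fell short of the 2-fold limit with TMM over all genes, 21 with DESeq2 or its size factors, 9 with glmTreat (among them C3ar1, Cebpb, Il6ra and Cdk1) and none with the block, only the 6 libraries or background subtraction. All of the 21 were rises, such as Ctsb, Npc2, Ifnar1, Socs3, H2-K1, Cd40, Cebpb, Bcl2l1 and Cflar. Over the 317 distinct genes of all lists that rose or fell, markers included, 51 rises were lost with TMM over all genes, 63 with DESeq2 and 5 with library sizes alone, and no fall was. Leaving out a library ended at most 4 of the 193 calls: C3ar1, Ly96, Fcgr1 and Cebpb without EMT6 medium replicate 1 or 2, Itgav and Cebpb without replicate 3, Slamf1 and Cebpb without GM-CSF replicate 2, and Etfb without GM-CSF replicate 3. Spi1, which did not pass the test, changed sign: it was -0.50 with TMM over all genes, -0.64 with DESeq2 size factors and with DESeq2, -0.00495 with library sizes alone, and, with each library left out, -0.0458 to 0.0629, below 0 without any 1 EMT6 medium library (-0.0458, -0.0438 and -0.0125). The median of the fibroblast or stromal markers was -3.70 at a mean CPM of at least 20, where few members remain.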

Other observations

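Some genes of the lists that the report does not describe are given here as values. Among guanylate-binding proteins and related GTPases, Irgm1 averaged 16.6 scaled CPM with GM-CSF alone and 58.1 with EMT6 medium (1.81 ± 0.07), and Gbp7 changed by -0.53. Of 13 expressed inflammasome genes 3 rose and 3 fell (5 with scaling over all genes tested): Mefv (pyrin) averaged 7.45 and then 44.6 (2.58 ± 0.08), Casp4, which cuts gasdermin D after sensing lipopolysaccharide, 18.1 and then 69.4 (1.92 ± 0.07), and Nlrp3 225 and then 82.6 (-1.44 ± 0.05). Txnip, which binds thioredoxin, averaged 491 and then 1834 (1.90 ± 0.04). Of 9 Fc receptor genes Fcgr1 averaged 22.9 and then 47.3 (1.05 ± 0.07), and Fcgrt, the neonatal Fc receptor, 127 and then 28.7 (-2.15 ± 0.06). Megakaryocyte markers split: Pf4 averaged 166 and then 700 (2.07), while Itga2b and Vwf averaged 214 and 149 and then 80.0 and 43.9. Hamp, the iron hormone hepcidin, averaged 0.268 and then 7.63 (4.81 ± 0.25).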
